A study of Homo sapiens with 10 samples.

Results

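The alpha subunit of translation initiation factor eIF2 is phosphorylated by 4 kinases, EIF2AK1 (HRI), EIF2AK2 (PKR), EIF2AK3 (PERK) and EIF2AK4 (GCN2), and dephosphorylated by protein phosphatase 1 bound to 1 of 2 targeting subunits, PPP1R15A (GADD34) and PPP1R15B (CReP). These 6 genes and 2 regulators of EIF2AK4, GCN1 and IMPACT, were taken by symbol from a table of RNA levels, and each of the 8 was found once among 16734 genes. The RNA came from MIA PaCa-2, an established line of human pancreatic ductal adenocarcinoma cells. In 5 libraries the cells had received 10 µM hydroxyprogesterone caproate (HPC, a synthetic progestin ester) for 24 h. In the other 5 the cells had received an equal volume of DMSO, the solvent, for 24 h. All 10 libraries came from the same line, grown in DMEM with fetal bovine serum and antibiotics, with no genetic change named in the labels, so that the findings are those of 1 cell line, 1 dose and 1 time. By their labels the libraries are biological replicates, with no day of culture or batch named.

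Phosphorylated eIF2 holds on to eIF2B, the factor that reloads eIF2 with GTP, so that most translation initiation slows while a few messages such as that of the transcription factor ATF4 are translated more. This is called the integrated stress response. Each kinase is activated by its own signal: PERK by unfolded protein in the endoplasmic reticulum (ER), PKR by double-stranded RNA, HRI by lack of heme or by mitochondrial stress, and GCN2 by uncharged tRNA and stalled ribosomes. CReP is present in unstressed cells, whereas GADD34 is induced during the response and ends it. GCN1 is a ribosome-bound protein that GCN2 needs for activation, and IMPACT competes with GCN2 for GCN1. The kinases are switched on by changes in the protein, which RNA levels do not measure. In GENCODE 29 on GRCh38 the genes lie apart from each other: PPP1R15A at chr19:48872392-48876057 (plus strand), PPP1R15B at chr1:204403387-204411791 (minus), EIF2AK3 at chr2:88556741-88627576 (minus), EIF2AK1 at chr7:6022244-6059230 (minus), EIF2AK2 at chr2:37099210-37157065 (minus), EIF2AK4 at chr15:39934146-40035591 (plus), GCN1 at chr12:120127203-120194710 (minus) and IMPACT at chr18:24426616-24453535 (plus).

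For 7 of the 8 genes a promoter window of 300 bases, 250 before and 50 after the RefSeq start, was at hand in the assembly GRCh38.p14. Each window was searched on both strands for 4 motifs. The first was TGATGNAA, the core of the element bound by ATF4 with a C/EBP partner. The second was TGACGT, the core of the cyclic AMP response element. The third was the interferon-stimulated response element, written as GAAA, any 2 bases and GAAA, and the fourth the ER stress element, CCAAT and CCACG with any 9 bases between them. Over 35116 promoter windows of this length, 3.62% held the first, 7.98% the second, 3.57% the third and 0.0769% the fourth. Both phosphatase subunit promoters and that of EIF2AK2 held a match and are shown 5′ to 3′ on the gene's strand, with the matches in capitals. They are chr19:48872171-48872420 on the plus strand and chr1:204411818-204412067 on the minus strand, each the 250 bases before the start, and chr2:37156971-37157090 on the minus strand, with 110 bases before the start and 10 after it.
PPP1R15A: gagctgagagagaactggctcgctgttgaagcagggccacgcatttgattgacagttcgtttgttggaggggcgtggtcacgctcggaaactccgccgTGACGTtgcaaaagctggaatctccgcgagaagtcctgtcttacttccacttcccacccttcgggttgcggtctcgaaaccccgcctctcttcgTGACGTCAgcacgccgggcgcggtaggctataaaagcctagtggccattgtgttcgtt
PPP1R15B: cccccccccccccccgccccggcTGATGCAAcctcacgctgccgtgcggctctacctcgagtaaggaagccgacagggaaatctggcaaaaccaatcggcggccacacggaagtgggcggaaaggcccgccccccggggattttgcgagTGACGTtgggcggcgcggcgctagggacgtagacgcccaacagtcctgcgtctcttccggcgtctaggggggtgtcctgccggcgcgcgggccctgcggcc
EIF2AK2: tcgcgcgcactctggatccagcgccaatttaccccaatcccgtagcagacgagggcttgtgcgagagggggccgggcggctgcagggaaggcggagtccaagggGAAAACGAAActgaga

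In PPP1R15A the capitals mark TGACGT starting 152 bases before the start and, at 58 bases before it, TGACGTCA, where TGACGT reads on both strands and the reverse match overlaps the forward one. In PPP1R15B they mark TGATGCAA at 227 bases and TGACGT at 101 bases before the start. In EIF2AK2 they mark the interferon-type motif GAAAACGAAA, which begins 6 bases before the start and runs past it. The windows of EIF2AK3, EIF2AK4, GCN1 and IMPACT held none of the 4 patterns. A match describes the letters only, and the letters of a window say nothing about whether a factor was bound there.

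Levels were given as FPKM (reads divided by gene length and by library size). The FPKM steps allowed whole reads to be recovered, 65828321 to 74452589 per HPC library and 71565136 to 82176257 per DMSO library, and each of the 8 genes had between 1570 and 27490 reads in every library. Of 9150 genes that reached 1 FPKM in 5 or more libraries, limma on log2(FPKM + 0.1) with Benjamini-Hochberg adjustment at 0.05 called 87.7%, of which 42.9% of the tested genes were higher in HPC and 44.8% were lower. The median log2 fold change was −0.01 and the median absolute one 0.43. Transcripts encoded by the mitochondrial genome took 13.8% to 15.9% of the FPKM in HPC libraries and 21.9% to 23.8% in DMSO libraries. With libraries scaled on the other genes alone, the median moved to −0.19 and the share of lower genes among those called moved to 63.4%, against 51.1% as deposited. Of the epithelial markers, KRT18 (148 to 156 FPKM in HPC and 109 to 119 FPKM in DMSO), KRT8 (55.2 to 61.4 FPKM in HPC and 49.99 to 53.0 FPKM in DMSO) and KRT19 (8.71 to 11.2 FPKM in HPC and 22.2 to 26.6 FPKM in DMSO) were present in every library. KRT7 was at most 0.0663 FPKM in HPC and 0.264 FPKM in DMSO, and EPCAM and CDH1 were at or near 0, at most 0.0111 and 0.00606 FPKM. Of the mesenchymal markers, vimentin (VIM) was at 322 to 346 FPKM in HPC and 682 to 718 FPKM in DMSO. ZEB1 went the other way, at 1.70 to 1.90 FPKM in HPC and 1.22 to 1.35 FPKM in DMSO. Among markers of other cell types, PTPRC (leukocytes), PECAM1 (endothelium), DCN (fibroblasts) and ALB (hepatocytes) did not exceed 0.00844 FPKM in any library. VWF (endothelium) was at most 0.0199 FPKM in HPC and 0.0538 FPKM in DMSO, COL1A1 (fibroblasts) at most 0.0117 FPKM in HPC and 0.0665 FPKM in DMSO, and CPA1 (acinar cells) 0 in HPC and at most 0.0268 FPKM in DMSO. CD14 (leukocytes) was the highest, at 0 to 0.118 FPKM in HPC and 0.394 to 0.567 FPKM in DMSO.

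All 8 genes differed between the groups, with 3 higher in HPC (PPP1R15A, PPP1R15B and EIF2AK3) and 5 lower (EIF2AK1, EIF2AK2, EIF2AK4, GCN1 and IMPACT). The HPC and DMSO values of none of the 8 overlapped. Non-overlap was found for 79.6% of the tested genes and a call for 87.7%, so that a call by itself did not mark the 8 genes out. What differed among them was direction and size. Bulk RNA cannot tell fewer cells with a transcript from less of it per cell.

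**Figure D1:**
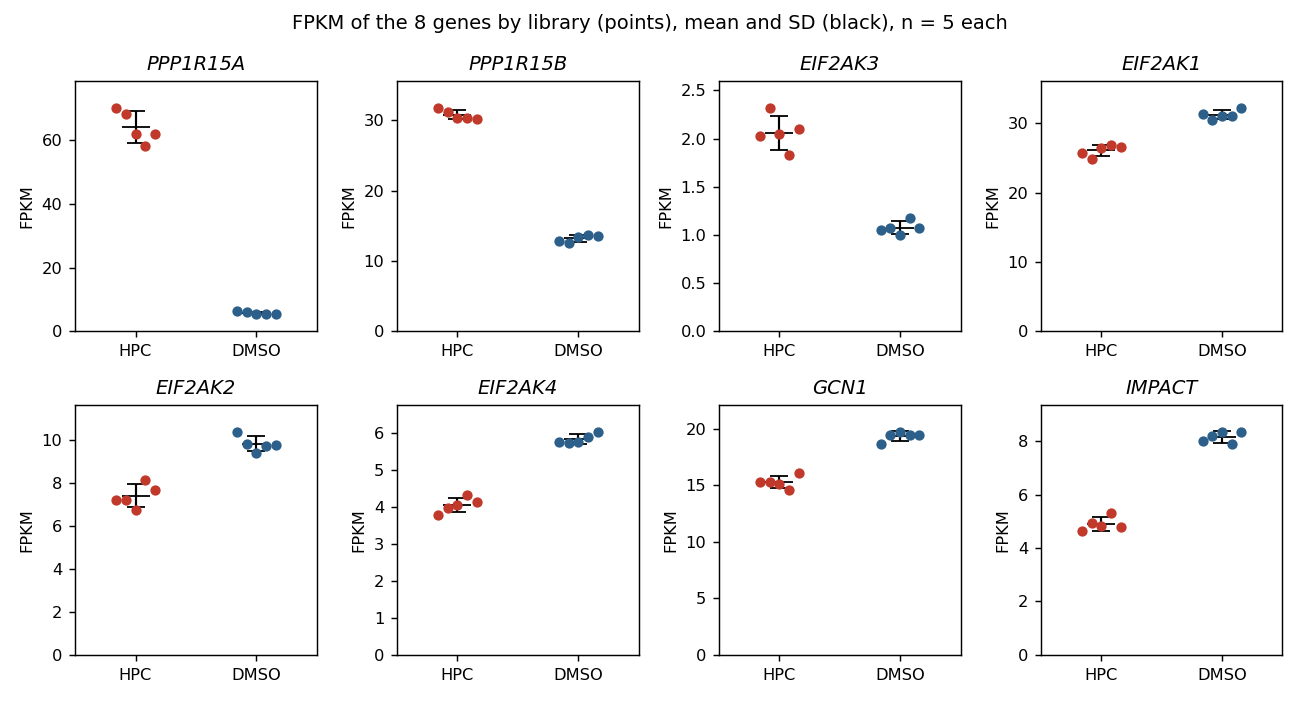
FPKM (y axis, linear, from 0) of each of the 8 genes in every library, HPC left and DMSO right, with a panel per gene; points are libraries and bars are group means with SD (n = 5). The HPC points of PPP1R15A, PPP1R15B and EIF2AK3 lie above all DMSO points, and those of the other 5 genes lie below them.

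PPP1R15A, which recruits protein phosphatase 1 to eIF2 during stress, showed the largest change of the 8. It measured 70.2, 68.2, 62.1, 58.2 and 62.0 FPKM in HPC libraries 1 to 5, against 6.34, 6.08, 5.33, 5.57 and 5.38 FPKM in DMSO libraries 1 to 5. Every HPC library was far above every DMSO library, the lowest HPC value being the 58.2 FPKM of library 4. Means were 64.2 ± 4.94 FPKM in HPC and 5.74 ± 0.447 FPKM in DMSO (SD, n = 5 each), 11.2-fold higher. On the log2 scale this was 3.46 (SE 0.060, limma adjusted p = 4.26e-14), and 33 of the 9150 tested genes (0.361%) rose at least as far.

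PPP1R15B, the subunit that holds phosphorylation down in unstressed cells, was also higher. It measured 31.8, 31.1, 30.4, 30.4 and 30.3 FPKM in HPC libraries, against 12.9, 12.6, 13.5, 13.8 and 13.5 FPKM in DMSO libraries. The HPC values lay within a narrow band, and the groups were well apart. Means were 30.8 ± 0.653 FPKM in HPC and 13.2 ± 0.496 FPKM in DMSO (SD, n = 5 each), 2.33-fold higher, with a log2 fold change of 1.21 (SE 0.029, limma adjusted p = 2.34e-13). A rise of at least this size was seen for 5.28% of the tested genes.

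The balance between the subunits turned over. The ratio of PPP1R15A to PPP1R15B was 2.21, 2.19, 2.04, 1.92 and 2.05 in HPC libraries, against 0.493, 0.483, 0.396, 0.405 and 0.397 in DMSO libraries. PPP1R15A thus had the higher FPKM in every HPC library and PPP1R15B in every DMSO library. The ratio was 4.81-fold higher in HPC, a log2 difference of 2.26 (exact two-sided permutation test over all assignments of the libraries to 2 groups of 5, p = 0.00794, the smallest it can give, and 0.0119 adjusted over the 9 ratios tested). How many other gene pairs would give this p was not computed, and 79.6% of single tested genes did not overlap between groups. As a share of the summed FPKM of both subunits, PPP1R15A made up 67.5 ± 1.29% in HPC and 30.2 ± 2.34% in DMSO (SD, n = 5 each), of sums of 94.9 ± 5.54 FPKM in HPC and 19.0 ± 0.279 FPKM in DMSO.

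Of the 4 kinases EIF2AK3, the ER-resident PERK, was the 1 that rose. It measured 2.02, 2.32, 2.05, 1.83 and 2.09 FPKM in HPC libraries, against 1.05, 1.08, 1.00, 1.18 and 1.08 FPKM in DMSO libraries. The closest values were HPC library 4 and DMSO library 4, which still did not meet. Means were 2.06 ± 0.176 FPKM in HPC and 1.08 ± 0.0641 FPKM in DMSO (SD, n = 5 each), 1.92-fold higher. On the log2 scale it was 0.88 higher (SE 0.060, limma adjusted p = 8.79e-09), and 9.33% of the tested genes rose at least as far. At these low levels the pseudocount matters: with 1 FPKM added in place of 0.1 the log2 fold change was 0.56, in the same direction and also called.

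EIF2AK4, the amino acid-sensing GCN2, fell furthest of the kinases. It measured 3.78, 3.97, 4.07, 4.32 and 4.14 FPKM in HPC libraries, against 5.75, 5.72, 5.76, 5.89 and 6.04 FPKM in DMSO libraries. All HPC values lay below all DMSO values. Means were 4.05 ± 0.201 FPKM in HPC and 5.83 ± 0.134 FPKM in DMSO (SD, n = 5 each), a difference of −30.5% and a log2 fold change of −0.52 (SE 0.036, limma adjusted p = 1.15e-08). A fall of this size or more was seen for 23.2% of the tested genes.

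EIF2AK2, the double-stranded RNA sensor PKR, was lower too. It measured 7.20, 7.22, 6.77, 8.15 and 7.69 FPKM in HPC libraries, against 10.4, 9.83, 9.42, 9.72 and 9.77 FPKM in DMSO libraries. HPC library 4 was again the closest to the DMSO libraries. Means were 7.41 ± 0.528 FPKM in HPC and 9.83 ± 0.355 FPKM in DMSO (SD, n = 5 each), a difference of −24.7% and a log2 fold change of −0.41 (SE 0.045, limma adjusted p = 1.61e-06), reached or passed downward by 27.9% of the tested genes.

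EIF2AK1, the heme-regulated kinase HRI, changed least. It measured 25.8, 24.9, 26.5, 26.9 and 26.6 FPKM in HPC libraries, against 31.4, 30.5, 31.1, 31.1 and 32.3 FPKM in DMSO libraries. The groups were separate though close. Means were 26.1 ± 0.803 FPKM in HPC and 31.3 ± 0.631 FPKM in DMSO (SD, n = 5 each), a difference of −16.5% and a log2 fold change of −0.26 (SE 0.026, limma adjusted p = 4.94e-07). Of the tested genes, 35.4% fell at least as far, and scaling on the genes not encoded by mitochondria moved its log2 fold change to −0.43. EIF2AK1 shares 532 exon bases with AIMP2 on the opposite strand, which measured 14.5 ± 0.988 FPKM in HPC and 6.99 ± 0.326 FPKM in DMSO (SD, n = 5 each). Whether the counting used strand is not given in the sources used here, and the part of AIMP2 reads in the EIF2AK1 values was not tested. EIF2AK2 shares 401 exon bases with the pseudogene AC007899.1, which was not analysed here, and 35 with GPATCH11, at 2.06 ± 0.141 FPKM in HPC and 2.48 ± 0.198 FPKM in DMSO (SD, n = 5 each), and EIF2AK3 shares 781 with the antisense gene AC104134.1, not analysed here either. The part of such reads was not tested.

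GCN1, which delivers the signal of stalled ribosomes to GCN2, was lower in HPC. It measured 15.3, 15.3, 15.1, 14.6 and 16.1 FPKM in HPC libraries, against 18.7, 19.5, 19.8, 19.5 and 19.5 FPKM in DMSO libraries. The groups did not overlap. Means were 15.3 ± 0.532 FPKM in HPC and 19.4 ± 0.417 FPKM in DMSO (SD, n = 5 each), a difference of −21.2% and a log2 fold change of −0.34 (SE 0.028, limma adjusted p = 6.29e-08), with 31.3% of the tested genes falling at least as far.

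IMPACT, the inhibitor that competes with GCN2 for GCN1, fell most of the 8. It measured 4.63, 4.93, 4.82, 5.31 and 4.79 FPKM in HPC libraries, against 8.01, 8.21, 8.35, 7.88 and 8.36 FPKM in DMSO libraries. Every HPC value was below every DMSO value. Means were 4.90 ± 0.254 FPKM in HPC and 8.16 ± 0.211 FPKM in DMSO (SD, n = 5 each), a difference of −40.0%. On the log2 scale this was −0.73 (SE 0.036, limma adjusted p = 3.41e-10), and 15.9% of the tested genes fell at least as far. The activator, the inhibitor and the kinase they act on were therefore all lower.

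Ratios of genes within a library do not depend on how the libraries are scaled to each other, and 9 were tested. The ratio of EIF2AK3 to EIF2AK4 was 0.535, 0.585, 0.505, 0.422 and 0.507 in HPC libraries, against 0.183, 0.188, 0.174, 0.20 and 0.178 in DMSO libraries. Its log2 difference was 1.46. EIF2AK3 gained on the other kinases too: the ratio of EIF2AK1 to EIF2AK3 was 12.7 in HPC and 29.1 in DMSO (geometric means), and that of EIF2AK2 to EIF2AK3 was 3.59 in HPC and 9.14 in DMSO. These are log2 differences of −1.20 and −1.35, and none of the 3 ratios overlapped between groups. Since EIF2AK3 was higher and each other kinase lower without overlap, these 3 ratios had to separate. The share of other gene pairs whose ratios separate was not computed, and 79.6% of single tested genes did not overlap. IMPACT relative to GCN1 was lower, at 0.303, 0.323, 0.319, 0.364 and 0.298 in HPC libraries, against 0.429, 0.422, 0.422, 0.404 and 0.429 in DMSO libraries, a log2 difference of −0.39. IMPACT therefore fell beyond the fall of GCN1. Each of these 4 ratios, and that of EIF2AK1 to EIF2AK4 (6.45 in HPC and 5.36 in DMSO, log2 difference 0.27), had p = 0.00794 and an adjusted p of 0.0119 by the exact permutation test.

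The other 3 ratios moved little and overlapped between groups. EIF2AK1 to EIF2AK2 was 3.53 in HPC and 3.18 in DMSO (log2 difference 0.15, exact permutation p = 0.0159, adjusted 0.0204). GCN1 to EIF2AK4 was 3.77 in HPC and 3.32 in DMSO (0.18, exact permutation p = 0.0238, adjusted 0.0268), and with 1 FPKM added the log2 difference was 0.11 (adjusted p = 0.0446). That call was lost, with an adjusted p of 0.0536, without HPC library 1, 2 or 5 or DMSO library 4 or 5, with log2 differences of 0.16 to 0.22 over the 10 omissions. EIF2AK2 to EIF2AK4 was 1.83 in HPC and 1.69 in DMSO (0.12, exact permutation p = 0.0397, the same after adjustment). This call was lost without HPC library 1, 2, 4 or 5 or DMSO library 3, 4 or 5, with adjusted p between 0.0635 and 0.0794, and the log2 differences ran from 0.10 to 0.15 over the 10 omissions. It was lost with 1 FPKM added as well, at 0.07 (adjusted p = 0.119).

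**Figure D2:**
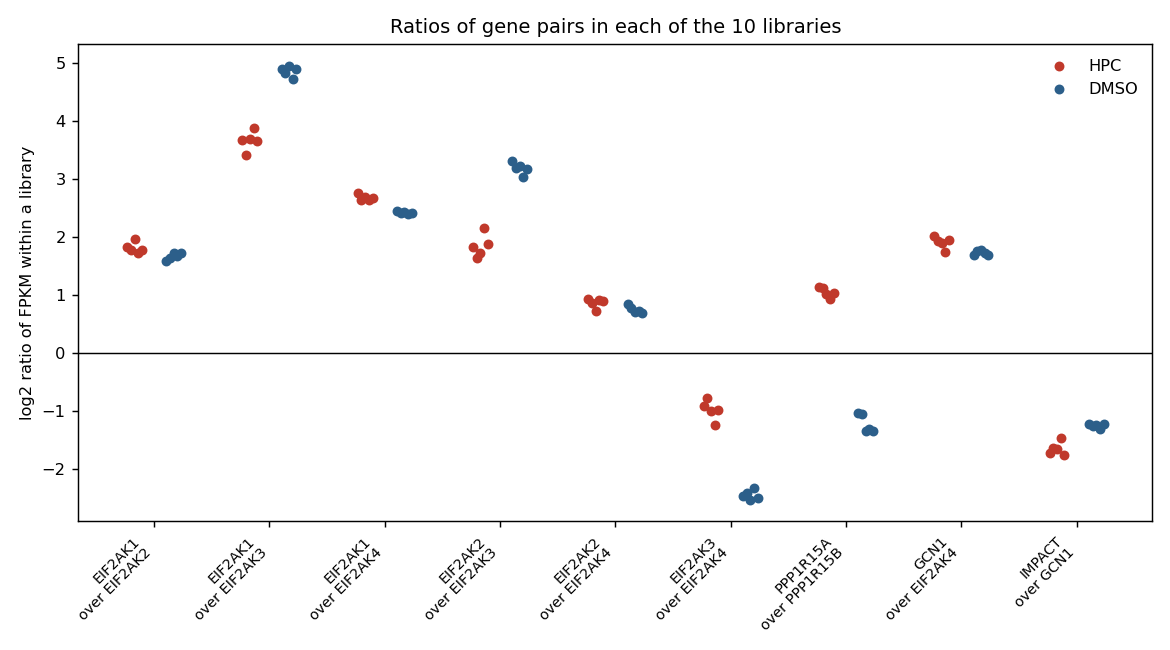
The 9 ratios of FPKM as log2 values (y axis) in each of the 10 libraries, HPC left and DMSO right in each pair; points are libraries and the line at 0 marks equal FPKM. PPP1R15A over PPP1R15B lies above the line in HPC (geometric mean ratio 2.08) and below it in DMSO (0.433), and the ratios with EIF2AK3 differ more than those among the other kinases.

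Together the kinases summed to 39.6 ± 1.17 FPKM in HPC and 48.0 ± 0.849 FPKM in DMSO (SD, n = 5 each). EIF2AK1 was most of it in both groups, at 65.9 ± 0.979% in HPC and 65.1 ± 0.534% in DMSO. EIF2AK3 made up 5.21 ± 0.570% in HPC and 2.24 ± 0.136% in DMSO, EIF2AK2 18.7 ± 0.942% in HPC and 20.5 ± 0.645% in DMSO, and EIF2AK4 10.2 ± 0.287% in HPC and 12.1 ± 0.198% in DMSO. The summed kinase level thus fell while the PERK share of it was higher.

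Order between genes depends on the length used to divide the reads. The recovered reads show the length behind each deposited FPKM, and for EIF2AK3 it was 22442 bases, 4.83 times the 4646 bases of its longest principal transcript in GENCODE 29. The same ratio was 4.64 for EIF2AK4, 3.21 for IMPACT, 2.40 for EIF2AK1, 2.04 for EIF2AK2, 1.71 for PPP1R15A, 1.49 for GCN1 and 1.01 for PPP1R15B. Over 10674 genes its median was 2.99, and 27.3% of them had at least the ratio of EIF2AK3. A longer divisor lowers the FPKM of a gene in every library and leaves its fold change as it is.

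On the deposited scale the order in HPC was PPP1R15A, PPP1R15B, EIF2AK1, GCN1, EIF2AK2, IMPACT, EIF2AK4 and EIF2AK3, with no overlap between neighbours. In DMSO it was EIF2AK1, GCN1, PPP1R15B, EIF2AK2, IMPACT, EIF2AK4, PPP1R15A and EIF2AK3, where EIF2AK4 and PPP1R15A overlapped. PPP1R15A was thus the highest of the 8 in HPC and the lowest but 1 in DMSO. Per kilobase of principal transcript, EIF2AK4 had a higher level than EIF2AK2, at 18.8 ± 0.933 against 15.1 ± 1.08 in HPC and 27.1 ± 0.624 against 20.1 ± 0.727 in DMSO (SD, n = 5), the reverse of the deposited order. EIF2AK3 stayed the lowest kinase on this scale, at 9.96 ± 0.853 in HPC and 5.20 ± 0.309 in DMSO, and EIF2AK1 the highest, at 62.7 ± 1.93 in HPC and 75.1 ± 1.52 in DMSO. The share of EIF2AK3 in the summed kinases was then 9.36 ± 0.973% in HPC and 4.08 ± 0.239% in DMSO. PPP1R15A reached 109.9 ± 8.47 in HPC and 9.83 ± 0.766 in DMSO, and made up 78.0 ± 1.01% of both subunits in HPC and 42.4 ± 2.7% in DMSO, so that the change of the leading subunit held on both scales. In DMSO neighbours GCN1, EIF2AK4 and IMPACT overlapped on this scale, as did IMPACT and EIF2AK2 in HPC.

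**Figure D3:**
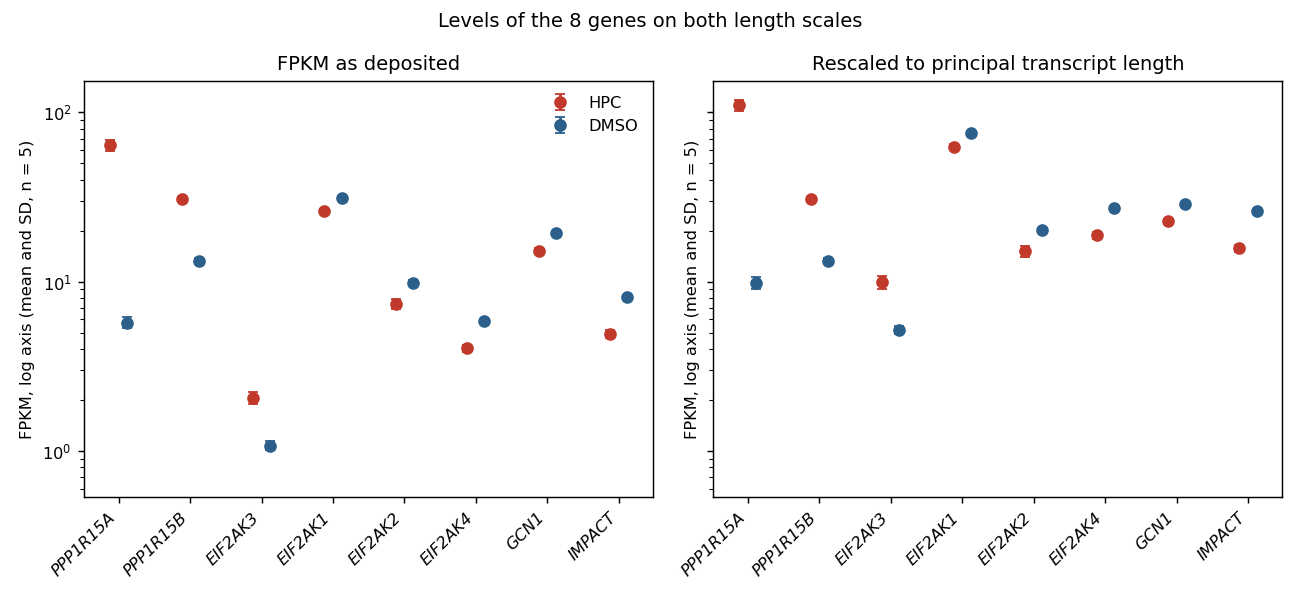
Mean level of the 8 genes with SD (n = 5, log y axis), HPC left and DMSO right for each gene, on the deposited FPKM scale and per kilobase of the principal transcript. EIF2AK2 lies above EIF2AK4 on the first scale and below it on the second, while EIF2AK3 is the lowest kinase on both.

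Variation between libraries exceeded counting error for every gene. For PPP1R15A the coefficient of variation was 7.70% in HPC, where its reads alone would give 0.746%, and 7.79% in DMSO, where they would give 2.39%. For EIF2AK3 it was 8.56% in HPC and 5.95% in DMSO, against 1.77% in HPC and 2.36% in DMSO from counting. PPP1R15B was steadier, at 2.12% in HPC and 3.75% in DMSO. HPC library 4 was nearest to the DMSO mean for 6 of the 8 genes and HPC library 5 for the other 2. Over all tested genes library 4 was the nearest for 32.1%, and its mean position was 94.7% of the way to the HPC mean, where the other HPC libraries stood between 96.9% and 103%. Without each library in turn, all 8 genes kept their direction and their call.

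Other genes of the pathway were taken in 11 lists, which hold 65 genes, 58 of them tested, with 37 higher, 17 lower and 4 not called and a median log2 fold change of 0.20. Over all tested genes 42.9% were higher, 44.8% lower and 87.7% called, with a median of −0.01. These shares are the background for the count of each list as deposited. With scaling on genes not encoded by mitochondria, 28 of the listed genes were higher and 20 lower, since that scaling lowers the log2 fold change of each of the listed and the 8 genes by nearly the same amount (PPP1R15B had 1.04 with it and 1.21 as deposited). The background moved with it: over all tested genes the median was then −0.19, with 2929 genes called higher and 5077 lower. List medians and counts under that scaling are to be read against these values. Of the eIF2 subunits, 2 of 3 were higher, with a median of 0.38 as deposited and 0.22 with scaling on genes not encoded by mitochondria. EIF2S1, the subunit that the kinases phosphorylate, measured 22.4 ± 0.217 FPKM in HPC and 17.1 ± 0.317 FPKM in DMSO (log2 fold change 0.38, and 0.22 with that scaling), and the beta subunit EIF2S2 measured 191.0 ± 4.56 FPKM in HPC and 86.0 ± 2.78 FPKM in DMSO (1.15). The gamma subunit EIF2S3, which binds GTP and initiator tRNA, was lower at 97.2 ± 3.84 FPKM in HPC and 128.2 ± 2.61 FPKM in DMSO (−0.40). Of eIF2B, the exchange factor that phosphorylated eIF2 blocks, EIF2B2 (0.73), EIF2B3 (0.40) and EIF2B4 (0.40) were higher and EIF2B1 (−0.60) was lower, with a median of 0.40 as deposited and 0.24 with scaling on genes not encoded by mitochondria. EIF2B5 was below the filter, at 0.716 FPKM in HPC and 0.854 FPKM in DMSO.

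Of the catalytic subunits of protein phosphatase 1, which PPP1R15A and PPP1R15B direct to eIF2, 2 were lower and 1 was higher as deposited. PPP1CC was lower at 12.4 ± 0.504 FPKM in HPC and 22.8 ± 0.333 FPKM in DMSO (SD, n = 5 each, log2 fold change −0.87), and PPP1CA was lower (−0.36). PPP1CB was higher by 0.13 on the deposited scale, whereas with scaling on genes not encoded by mitochondria it was −0.04 and not called. The list median was −0.36.

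Of 5 partners of PERK, 4 were higher and 1 was not called, with a median of 1.14. HSPA5 (BiP), the ER chaperone that keeps PERK inactive, measured 1116 ± 93.5 FPKM in HPC and 166.3 ± 4.65 FPKM in DMSO (log2 fold change 2.74). DNAJC3 (p58IPK), an ER co-chaperone described as an inhibitor of PERK, measured 12.3 ± 0.990 FPKM in HPC and 5.53 ± 0.263 FPKM in DMSO (1.14). HSP90B1 (1.31) was higher. PDIA6 was higher by 0.20 as deposited, but had 0.04 and no call (limma adjusted p = 0.354) with scaling on genes not encoded by mitochondria. The adaptor NCK1 had −0.09 (limma adjusted p = 0.127) as deposited, and was called lower at −0.26 with that scaling and at −0.12 with TPM rescaling. The counts were then 3 higher and 1 lower with scaling on genes not encoded by mitochondria, and 4 higher and 1 lower with TPM rescaling. Among the other ER stress sensors and their relatives, ERN1 (IRE1 alpha, 2.30), ATF6 (1.02) and XBP1 (2.71) were higher, and ATF6B (−0.16) was lower. The median of these 4 was 1.66.

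Of 4 tested partners of PKR, 2 were higher, 1 lower and 1 not called, with a median of 0.06 that was −0.03 under quantile normalization and −0.10 with scaling on genes not encoded by mitochondria. PRKRA (PACT), an activator of PKR, was higher at 8.71 ± 0.239 FPKM in HPC and 4.96 ± 0.131 FPKM in DMSO (SD, n = 5 each, log2 fold change 0.80). ADAR, which edits double-stranded RNA, had −0.01 (limma adjusted p = 0.745), and was called lower at −0.17 with scaling on genes not encoded by mitochondria (limma adjusted p = 3.74e-05). NPM1 had 0.13 as deposited and −0.06 under quantile normalization, a turn of direction, and −0.04 with scaling on genes not encoded by mitochondria. TARBP2 was below the filter at 0.317 FPKM in HPC and 0.466 FPKM in DMSO. Other sensors of double-stranded RNA and their effectors, with ADAR again among them, had 3 of 4 tested genes lower as deposited and a median of −1.71. OAS3 measured 0.234 ± 0.0757 FPKM in HPC and 3.19 ± 0.192 FPKM in DMSO (−3.33), RIGI 2.08 ± 0.177 FPKM in HPC and 8.28 ± 0.311 FPKM in DMSO (−1.95), and IFIH1 was lower too (−1.47). OAS3 and IFIH1 passed the filter on low values through their DMSO libraries alone, so that they had to differ, and without any 1 DMSO library RIGI was the 1 gene of this list called lower. OAS1, OAS2 and TLR3 were below the filter in both groups, and ZBP1 was not analysed here.

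Of 5 genes of the HRI pathway, 4 were lower, where 44.8% of all tested genes were, with a median of −0.33. DELE1, the mitochondrial protein whose fragment activates HRI, measured 3.39 ± 0.127 FPKM in HPC and 5.18 ± 0.259 FPKM in DMSO (SD, n = 5 each, log2 fold change −0.60), and OMA1, the protease that cuts it, was lower (−0.48). HSPA8 (−0.31) and HSP90AB1 (−0.33), chaperones that bind HRI, were lower, and HSP90AA1 was higher (0.33, and 0.12 under quantile normalization). HRI, at −0.26, was lower as well, and whether these changes are linked was not tested.

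Of 12 genes tied to GCN2 activation at the ribosome, 9 were higher, 2 lower and 1 not called as deposited, with a median of 0.17 that was 0.00066 with scaling on genes not encoded by mitochondria. The median of all tested genes moved likewise, from −0.01 as deposited to −0.19 with that scaling. GTPBP2, a factor that rescues stalled ribosomes, was the largest at 22.7 ± 0.947 FPKM in HPC and 3.33 ± 0.132 FPKM in DMSO (SD, n = 5 each, log2 fold change 2.73), followed by ABCF2 (0.67). The lowest were DRG2 (−0.29) and RPLP0 (−0.15), a ribosomal stalk protein. With the same scaling 5 were higher and 3 lower, and ABCF1 and MAP3K20 turned to −0.03 and −0.02, while quantile normalization turned RPLP1 and RPLP2 to −0.04 and −0.02. Factors of alternative or start codon-selecting initiation had 4 of 7 higher, 2 lower and 1 not called, with a median of 0.14 (−0.03 with scaling on genes not encoded by mitochondria), led by EIF1 (162.7 ± 5.89 FPKM in HPC and 44.3 ± 1.94 FPKM in DMSO, log2 fold change 1.87) and EIF5 (1.44). EIF5B (−0.14) and MCTS1 (−0.10, and −0.06 with no call under quantile normalization) were the lowest. With scaling on genes not encoded by mitochondria DENR (0.14 as deposited) and EIF2D (0.08 and not called as deposited) turned to −0.03 and −0.09, and the counts were 2 higher and 2 lower.

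Among 8 listed genes downstream of eIF2 phosphorylation, the smallest log2 fold changes were those of ATF5 (1.08) and ATF4 (2.16), and the largest those of DDIT3 (CHOP, 5.25) and ATF3 (5.51). All 8 were called higher, and 42.9% of all tested genes were. The median of 3.76 rests in part on DDIT3, ATF3 and CHAC1, which averaged under 1 FPKM in DMSO and passed the filter through their HPC libraries, so that they had to differ. Without any 1 HPC library ATF3 no longer passed the filter, and 7 of the 8 were called higher. PPP1R15A, itself known as a target of this branch, had 3.46.

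**Figure D4:**
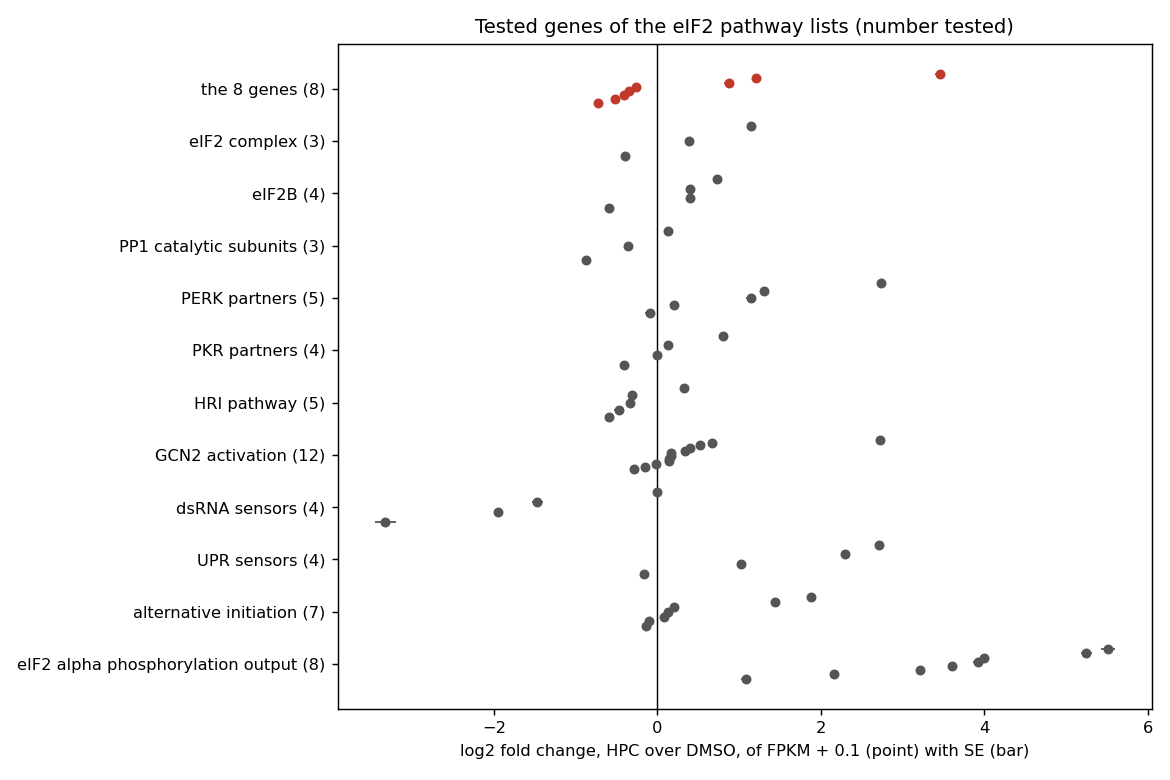
Log2 fold change (HPC over DMSO, x axis) of each tested gene of the 8 genes and the 11 pathway lists, a row per list with the number of genes tested; points are genes and bars are standard errors. The downstream genes lie furthest right, OAS3 and RIGI among the sensors of double-stranded RNA furthest left, and the 8 genes fall into 3 right of 0 and 5 left of it.

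For each of the 8 genes the tested genes with the most similar pattern were found by the Euclidean distance between log2 values centred on their means, over the 10 libraries, which is set mostly by the difference between the groups. Nearest to PPP1R15A were CEBPB (distance 0.206, 149.2 FPKM in HPC and 13.7 FPKM in DMSO), AREG (0.299) and EGR1 (0.301). PPP1R15B was closest to NBPF1 (0.125), CDV3 (0.135) and CAMTA2 (0.136), and EIF2AK3 to TMEM127 (0.15), CDK6 (0.157) and TIGAR (0.185). The lower genes other than EIF2AK2 had nearer neighbours: EIF2AK4 had RBMX (0.0586), ANGEL2 (0.0770) and KTN1 (0.0787), and EIF2AK1 had PAICS (0.0753), LRCH3 (0.0753) and DPP9 (0.0803). EIF2AK2 was closest to FAM8A1 (0.119) and SPIN4 (0.129), at distances near those of PPP1R15B. GCN1 lay beside FAR1 (0.0766), INPP4B (0.0774) and ACIN1 (0.0885), and IMPACT beside FAM120B (0.0827), HAUS4 (0.0900) and DPY30 (0.114).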

How the data were processed

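RNA was measured in 5 HPC and 5 DMSO libraries. Per the labels' protocols, poly(A) RNA was selected and sequenced as paired-end reads. Per the submitters' processing notes, fastp 0.23.2, STAR 2.7.7a, edgeR and GRCh38.p13 were used, with no roles given. No source used here names the read counter, the annotation or the strand setting. As deposited by the authors, the values are FPKM of 16734 genes, with replicates kept apart. The 344 unnamed genes were named from a reference table by gene ID.

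For 15205 of 15208 genes above 0 in at least 3 libraries, values were whole multiples of 1 read within 0.001 read, which gave reads and gene lengths. Genes that reached 1 FPKM in 5 or more libraries were tested with limma 3.58.1 in R 4.3.3 (trend, robust, two-sided) on log2(FPKM + 0.1), a scale that understates the fold change of low genes, with Benjamini-Hochberg adjustment over 9150 genes. Ratios used an exact permutation test. No culture origin is given, so p-values measure only the spread between these libraries. Libraries of a group differed by 12 to 25.7 times counting noise (chi-square per degree of freedom), so none was a copy.

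The 8 genes and all lists were chosen with earlier results of these data known. All 8 genes were named. In lists of 5 or fewer every gene was named, and in longer ones the 2 largest and 2 smallest changes and, by name, genes not tested. For each of the 8, the 3 genes with the nearest pattern were taken. A few genes that these rules name are not reported here. Promoters came from RefSeq and coordinates from GRCh38. Alternatives varied pseudocount, filter, scaling, variance model, threshold, replicate block, voom on recovered reads and each library.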

Additional observations from a re-analysis of the deposited data

Results flagged for a closer look

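GCN1 in DMSO library 1 measured 18.7 FPKM, where the other 4 DMSO libraries lay between 19.5 and 19.8 FPKM. The library stood far from the others for the spread of its group: its gap to the nearest was 0.719 of the whole range, above Dixon's 95% critical value for 5 values. In all, 34 groups of 5 values were checked, 16 of single genes and 18 of ratios, and chance alone flags about 1 in 20.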

How the results depend on the processing

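All 8 genes kept direction and call under each alternative run (EIF2AK3 was not tested with a filter of 5 FPKM), with log2 fold changes of 3.27 to 3.50 for PPP1R15A, 1.04 to 1.23 for PPP1R15B, 0.56 to 1.03 for EIF2AK3, −0.43 to −0.24 for EIF2AK1, −0.57 to −0.37 for EIF2AK2, −0.68 to −0.44 for EIF2AK4, −0.51 to −0.33 for GCN1 and −0.89 to −0.64 for IMPACT. A filter of at least 5 FPKM, which tests fewer genes, called 3805 genes, 1969 higher and 1836 lower. Of the listed pathway genes it called 32 higher and 10 lower, against 37 higher and 17 lower with the main filter. The numbers of genes tested with the 5 FPKM filter are not reported here, so these counts cannot be read as shares. The ratio of EIF2AK2 to EIF2AK4 had a log2 difference of 0.069 with 1 FPKM added and 0.10 to 0.15 without each library, and that of GCN1 to EIF2AK4 0.16 to 0.22 without each library; their calls were lost in the cases named above, where fewer libraries also allow fewer assignments.

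HPC and DMSO libraries share replicate numbers. Same-numbered libraries deviated together with correlations of −0.06, 0.07, 0.20, 0.02 and 0.14, and 2 of 5 correlated best with their own number. No source used here says whether the numbers pair the libraries, and 5 such correlations cannot settle it. With the replicate block, limma called 3892 genes higher and 4077 lower and all 8 genes kept their calls. For the ratios a sign-flip test over 5 pairs cannot go below 0.0625, so none passed: EIF2AK1 to EIF2AK2 0.15, to EIF2AK3 −1.20 and to EIF2AK4 0.27, EIF2AK2 to EIF2AK3 −1.35 and to EIF2AK4 0.12, EIF2AK3 to EIF2AK4 1.46, PPP1R15A to PPP1R15B 2.26, GCN1 to EIF2AK4 0.18 and IMPACT to GCN1 −0.39. Depth was not the limit for the 8 genes, which had at least 1570 reads in every library.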
